A study of Arabidopsis thaliana with 6 samples.

Results

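MYB and NAC genes encode 2 large families of plant transcription factors, and the genes described here were those whose current symbol is MYB, NAC or ANAC with a digit directly after it. The platform's gene table gives 13356 genes a probe set that names no other gene, and among these the rule found 1 gene, NAC014 (AT1G33060), and 0 MYB genes. A table of the TAIR10.1 assembly holds 120 genes with such MYB symbols and 81 with such NAC or ANAC symbols. None of the other 200 was named for any probe set in the table used here, whether alone or together with other genes, so their levels were not analysed here. Some of them may lie behind the 8730 probe sets for which that table lists no gene. What follows is therefore an account of a single NAC gene and makes no statement about either family as a whole.

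NAC proteins bind DNA through a conserved domain at their amino end. In stems, members of the family switch on the making of secondary walls in vessels and fibres, in large part by way of MYB factors that act on cellulose, xylan and lignin genes. Other NAC proteins act in organ boundaries, in maturing sieve elements, in senescence and in stress. NAC014 belongs to a further subgroup, whose members carry a membrane anchor near the carboxyl end and are held at membranes as dormant forms until they are released to the nucleus. The amount of transcript of such a gene does not show how much of its protein is active.

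Expression was measured on 6 Affymetrix arrays of 3 mm pieces of wild-type Arabidopsis thaliana stem of the Col strain, cut 2.5 cm above the stem base. Plants had 3 weeks of 8 h light and 16 h dark, then 16 h light and 8 h dark. One group of 3 samples had 7 days of N-1-naphthylphthalamic acid (NPA), which stops auxin moving from cell to cell along the stem, at 10 mg per g, and the other 3 samples were mock-treated. The study used NPA to induce secondary growth, and NPA minus mock is the single comparison that its design implies.

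The arrays were alike. Medians over the probe sets tested ran from 6.18 to 6.39 on the log2 scale, and Pearson's r between arrays, over probe sets, was at least 0.982. In a principal component analysis the leading component (42.6% of the variance) separated mock from NPA. On the next one (21.9%) mock 1 and NPA 3 stood away from the remaining 4 arrays, so the NAC014 difference is also given without these.

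The NAC014 transcript was present at nearly the same level in mock and NPA stems. A single probe set measures it. Its log2 values were 7.82, 7.64 and 7.83 in mock 1, 2 and 3, and 7.77, 7.78 and 7.87 in NPA 1, 2 and 3. The highest value was in NPA 3 and the lowest in mock 2, and the values of both groups overlapped, as they did for all but 22.3% of the 22746 probe sets tested. All 6 arrays lay within a range of 0.24, of which the mock arrays alone took up 0.19. On every array NAC014 was above the array median, by 1.37 to 1.64, and 69.0% to 71.9% of probe sets had lower values. The gene was therefore measured well away from the dim end of the arrays, where lower quartiles were 4.16 to 4.31.

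**Figure D1:**
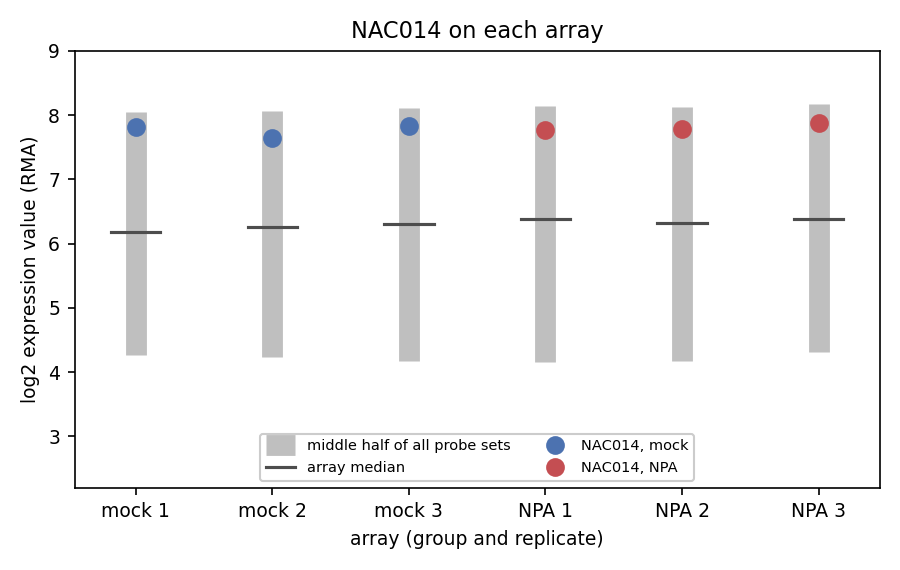
Log2 expression value of NAC014 (coloured points, 1 per array) on the 3 mock and 3 NPA arrays, with the span from the lower to the upper quartile of all probe sets tested (grey bars) and the array median (dark lines). The points sit between 7.64 and 7.87, close under the upper quartile of every array, with mock and NPA interleaved.

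The mean was 7.76 ± 0.11 in mock and 7.81 ± 0.06 in NPA (SD, n = 3 each). The difference of 0.046 on the log2 scale had a standard error of 0.096 (limma, adjusted p = 0.869), which is 1.03-fold. Its 95% interval ran from -0.18 to 0.27, or from 0.883-fold to 1.21-fold. A difference of 2-fold in either direction lies outside this interval, and differences inside it cannot be told apart with these arrays. The interval is not a limit of detection, since differences beyond it can also go uncalled. COB, described below, differed by 0.59 and was not called. The two-sided exact permutation p over the 6 arrays was 0.7, where 3 arrays against 3 cannot go below 0.1. The 3 NPA values were all above the mock mean, but 2 of them were below both mock 1 and mock 3. In whole stem pieces the number of cells that make a transcript and its amount per cell cannot be told apart.

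NAC014 was neither called higher nor called lower at an adjusted p under 0.05, nor was its unadjusted p of 0.644 under 0.05. Of all probe sets tested, 2.76% were called higher in NPA and 0.242% lower, that is 628 and 55. With arrays centred on their medians 391 were higher and 97 lower, and after quantile normalization once more 473 and 87. With 1 measured gene this says nothing about how often NAC genes are called. The median difference over all probe sets tested was 0.016, which NAC014 exceeded by 0.031. In absolute size, 20.7% of probe sets differed less than NAC014 did.

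**Figure D2:**
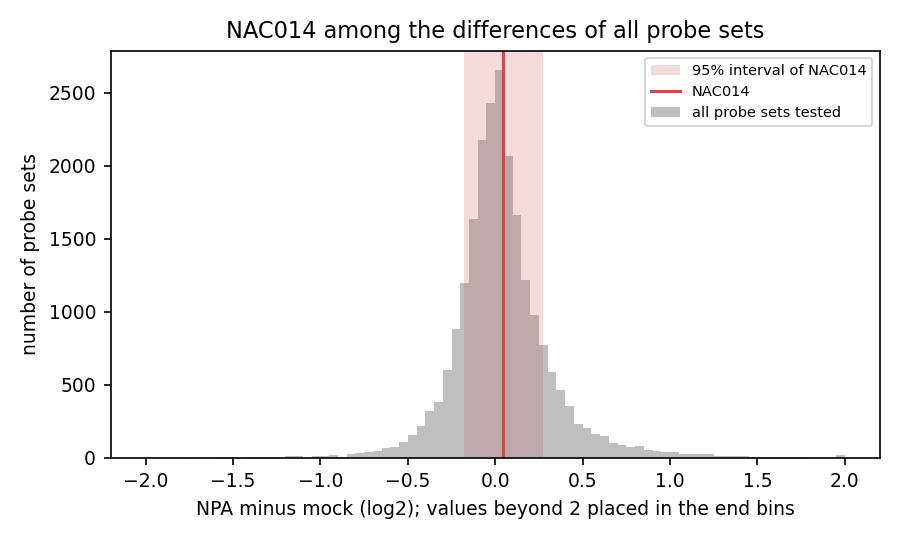
Number of probe sets (vertical axis) by their NPA minus mock difference on the log2 scale (horizontal axis), with the NAC014 difference of 0.046 (red line) and its 95% interval of -0.18 to 0.27 (shaded). The line lies near the peak of the distribution, and the 20 probe sets beyond 2 are placed in the end bins.

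The spread of NAC014 between replicates was narrow. Its residual SD was 0.086 on the log2 scale, against a median of 0.15 over all probe sets, and 16.0% of probe sets had a smaller one. The NPA arrays spanned 0.10 and the mock arrays 0.19, with mock 2 alone below the others.

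The sign of the NAC014 difference was not settled. It was 0.046 as deposited, but -0.062 when arrays were centred on their medians and -0.036 after quantile normalization once more. The centring shifted every difference down by 0.11, since NPA arrays had higher medians, and took the median over all probe sets to -0.093. Measured from its array's median, NAC014 was at 1.51 ± 0.13 in mock and 1.45 ± 0.04 in NPA (SD, n = 3 each). Without mock 2, the lowest array, the difference was -0.016, and without mock 1 and NPA 3 together it was 0.044. Over 14 alternatives the adjusted p of limma ran from 0.775 to 0.976 and no 95% interval passed beyond -0.32 or 0.36, that is 0.803-fold or 1.28-fold. The replicate block, brighter probe sets, trended and robust eBayes and other choices of probe sets could not move the difference itself from 0.046. They changed only its interval and p.

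**Figure D3:**
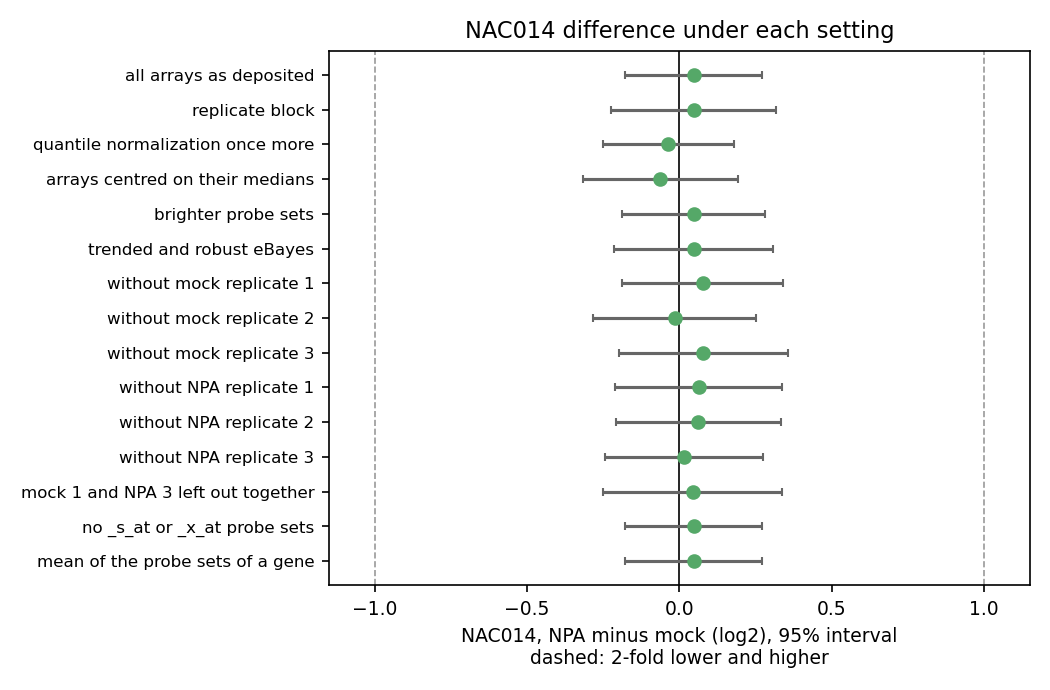
NAC014 difference, NPA minus mock on the log2 scale (points), with its 95% interval (bars) for all arrays as deposited and for 14 alternatives, 1 per line. Points run from -0.062 to 0.079, all intervals hold 0, and none reaches the dashed lines at 2-fold lower and higher.

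Closest to the rule from outside was MYBC1 (AT2G40970), a MYB-like gene that acts in freezing tolerance and whose symbol has a letter after MYB. It was picked out after its values were seen. Its log2 values were 7.60, 6.83 and 7.35 in mock 1, 2 and 3 and 6.74, 6.73 and 7.01 in NPA 1, 2 and 3. Only NPA 3 lay within the mock range, and the other NPA arrays were lower than all mock arrays. The difference of -0.43 had a standard error of 0.20 (95% interval -0.89 to 0.03) and did not pass the test (limma, adjusted p = 0.341).

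Genes that NAC and MYB factors are known to act on, or that work beside them, were taken from 7 lists with 176 entries, of which 20 genes were measured. Of these 20, 6 were called higher and 0 lower by limma, where 2.76% and 0.242% of all probe sets were, with a median difference of 0.36 against 0.016 over all probe sets tested. The lists were drawn up with earlier results of these data known, so the count is a description. In the secondary wall synthesis list, 3 of 4 measured genes were called higher, namely the xylan genes IRX10 (now GUT2), IRX15-L and IRX15. They differed by 1.40, 1.33 and 0.97 on the log2 scale (limma, adjusted p = 0.00705, 0.00532 and 0.0138). The remaining gene, COB, was also higher in NPA, by 0.59, but was not called (adjusted p = 0.138). The IRX15 call was lost without mock 2 or mock 3 (adjusted p = 0.0568 and 0.0576). In the lignin list HCT, a monolignol enzyme gene, was called higher, by 0.75 (adjusted p = 0.00749), as 1 of 3. CCR2 differed by -0.028 (adjusted p = 0.986), with mock values from 4.94 to 7.05. PRX72 differed by -0.034 (adjusted p = 0.9) and was dim, with values from 3.33 to 3.51. In the list of mitotic genes, which MYB3R factors regulate, 3xHMG-box2 and AUR2 rose by 1.22 and 0.76 (adjusted p = 0.00678 and 0.0326), as 2 of 4. Their mock values, 5.07 to 5.52 and 4.46 to 4.91, lay under the array medians of 6.18 to 6.39. Of the uncalled genes in this list, AUR1 differed by 0.46 (adjusted p = 0.228). AUR3 differed by -0.04 and was dim, with values from 3.76 to 3.98. HCT and 3xHMG-box2 were not called without mock 1 and NPA 3 together (adjusted p = 0.0528 and 0.0521). The AUR2 call was lost each time 1 of the 6 arrays was left out, with adjusted p of 0.0583 to 0.0966. None of the 5 genes measured of the flavonoid list, 2 of the glucosinolate list and 1 of the wax list was called. PHV was not called either. It was the only gene measured among 27 entries in the list of secondary wall regulators, so this list was hardly sampled. None of these 9 measured genes had an unadjusted limma p under 0.05. The flavonoid list held TRY, which encodes a small MYB protein of trichome patterning and is no flavonoid enzyme gene. TRY differed by 0.13 (adjusted p = 0.583). TRY, BAN of the flavonoid list and WSD1, the wax gene, were dim, with values from 3.32 to 4.46. Lower quartiles of the arrays were 4.16 to 4.31, so a fall in these genes could hardly show.

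Values of cell type markers for these stems were read from 7 further lists with 73 entries, of which 16 genes were measured. Of these, 5 (against 2.76% of all probe sets) were called higher and 0 (against 0.242%) lower. The 5 were CLE44 and MOL1 of the cambium list, IRX10 and IRX15 of the xylem list and OPS of the phloem list. IRX10 and IRX15 were already counted among the called pathway genes, so the marker count is not separate from that one. These lists too were drawn up with earlier results of these data known, and the count is a description. CLE44 is in the cambium list for its peptide, which acts on the cambium but is made in and near the phloem. The other measured phloem gene, the sucrose carrier gene SWEET11, differed by -0.95 (adjusted p = 0.0909), with all NPA arrays below all mock arrays, so both phloem genes differed with opposite signs. The MOL1 call was lost without mock 1, mock 2, NPA 1, NPA 2 or NPA 3, each in turn (adjusted p up to 0.0773), and the OPS call without mock 1, mock 2 or NPA 1 (up to 0.0765). Markers of the green cortex, epidermis and stomata, starch sheath and flowers had 0 calls among 9 measured genes by limma, with 2 under 0.05 before adjustment. Both of these had lower values in NPA, SCL23 of the starch sheath by -0.51 (adjusted p = 0.0594) and the stomatal gene FAMA by -0.23 (adjusted p = 0.303). ACR4, SPCH and MUTE of the epidermis and stomata list and SPL of the floral list were dim, with values from 3.47 to 4.39. These lay near or under the lower quartiles of the arrays (4.16 to 4.31), so a fall in these genes could hardly show. The 5 called marker genes were higher in NPA while the NAC014 value differed by less than its replicate spread, and whether a change in the share of cell types touched NAC014 was not tested.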

How the data were processed

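Stem RNA of 3 mock-treated and 3 NPA-treated samples was hybridised to 1 array each. The authors deposited log2 values. The tools listed in the submitters' processing notes are RMA and limma, with no version. RMA corrects background, quantile-normalizes arrays and sums up probes, and it gives no detection call. Later steps and probe set definitions are not stated in the sources used here. Groups came from sample titles. Whether the 3 samples of a group were separate plants is not stated, so p-values cover a spread between samples that may be technical only.

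The values were used without a filter, and 64 control probe sets were left out, leaving 22746. NPA minus mock was fitted with limma 3.58.1 (R 4.3.3). Adjusted p-values are those of Benjamini and Hochberg over the whole table, and a probe set was called at an adjusted p under 0.05. Intervals and standard errors are limma's moderated ones. Single values were compared by exact permutation tests (scipy 1.17.1), and plots were made with matplotlib 3.10.9. The fit was checked on simulated data.

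Of the probe sets, 13513 had exactly 1 gene in the platform's table and 503 had several. Symbols of 13436 were brought up to date by gene number from a TAIR10.1 table, and 77 kept the platform's name. With several probe sets of a gene, the one with the highest mean over 6 arrays was used. In the lists, CHI and FDH were left out because these current symbols stand for other genes. The rule for genes to be named took called members and members of fixed role lists, but with 1 member NAC014 alone was in it, beside called genes of the pathway lists. Members and lists were chosen with earlier results of these data known. The alternatives were a replicate block, 2 rescalings of the arrays, brighter probe sets, trended and robust eBayes, arrays left out, other choices of probe sets, adjusted p under 0.1, and symbols with nothing after the digits. Sequences were not used here.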

Additional observations from a re-analysis of the deposited data

How the results depend on the processing

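NAC014 was not called under any of the alternatives, so the counts of NAC genes called higher and lower were 0 in each (limma, lowest unadjusted p = 0.510). Its difference, which as the only member is also the median of the NAC genes, was -0.062 with median-centred arrays, -0.036 after quantile normalization once more, -0.016 without mock 2, and -0.016 to 0.079 with single arrays left out. MYB genes gave no value under any setting, since none was measured. Over all probe sets 683 were called, against 304 to 446 with single arrays left out, 397 without mock 1 and NPA 3, 449 with the replicate block and 1208 at an adjusted p under 0.1. Lower calls were 55 as deposited, 97 with median-centred arrays and 87 after quantile normalization once more, with 628, 391 and 473 higher. At an adjusted p under 0.1, SWEET11 and SCL23 would be called lower. The smaller fits have fewer samples. Same-numbered arrays did not deviate together (r = -0.26, 0.05 and 0.04), so the numbers were not taken to pair samples. With the replicate block the NAC014 difference was 0.046 (adjusted p = 0.911), and AUR2 was no longer called (adjusted p = 0.0586). Of the other 5 pathway genes called, IRX10 and IRX15-L kept their call under every alternative, IRX15 lost it without mock 2 or mock 3, and HCT and 3xHMG-box2 without mock 1 and NPA 3 together. Among the marker genes, CLE44 kept its call throughout, MOL1 lost it also with median-centred arrays (adjusted p = 0.0515), and MOL1 and OPS without mock 1 and NPA 3 together (adjusted p = 0.0981 and 0.0871). AUR2, 3xHMG-box2 and OPS were too dim to be among the brighter probe sets, so that alternative did not cover them. The number of arrays limits precision, and RMA values carry no measure of signal over background.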
